A study of Mus musculus with 12 samples.

Results

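The genes described here are the 3 subunits of the epithelial sodium channel (Scnn1a, Scnn1b and Scnn1g), the mineralocorticoid receptor Nr3c2, the glucocorticoid receptor Nr3c1, the enzymes Hsd11b1 and Hsd11b2 that interconvert active and inactive glucocorticoid, and 3 genes that corticosteroids induce (Sgk1, Tsc22d3 and Fkbp5). They were taken as every probe whose platform symbol was one of these names, which gave 10 genes of 19057 with 1 symbol on the array and 17 probes of 45281. Of the 17 probes, 16 were above background on enough arrays to be tested, among 23984 tested probes in all. The samples were kidneys from C57BL/6J males aged 28 days. Mothers of the ethanol group (6 samples) drank 10% ethanol by volume, freely available, from conception until gestation day 8.5, and 6 samples were controls. The labels carry the same exposure text on the control samples and do not say what the control mothers drank, so the groups rest on the sample titles. Biotin-labelled cRNA made from total RNA was read on Illumina bead arrays, and all values below are background-corrected, quantile-normalised log2 probe intensities. The labels do not say whether the 6 samples of a group came from separate animals or litters, so each p-value reflects just the scatter among the 12 samples, which may be technical.

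In the kidney the channel lets sodium enter the principal and connecting tubule cells of the distal nephron, and aldosterone acting on the mineralocorticoid receptor raises its activity. Cortisol and corticosterone bind the same receptor, and Hsd11b2 keeps them from it by converting them to inactive forms in those cells, while Hsd11b1, found mainly in proximal tubule and interstitial cells of rodent kidney, works in the activating direction. Sgk1 is the kinase that holds back removal of the channel from the membrane, Tsc22d3 encodes GILZ, a leucine zipper protein induced by both steroids, and Fkbp5 is a receptor co-chaperone that lowers glucocorticoid receptor affinity.

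None of these genes passed the test between ethanol and control kidneys. In limma with Benjamini-Hochberg adjustment 0 of the 16 tested probes had an adjusted p under 0.05, where 0 of 23984 probes did over the whole array (0.0%). Their adjusted p-values lay between 0.402 and 0.972. At an unadjusted p under 0.05, a single probe of the 16 (6.25%) qualified, against 2915 of 23984 probes over the array (12.2%, with 5.35% higher and 6.81% lower in ethanol kidneys). The count among the 16 was 0 to 3 as each kidney was left out, and several of them are probes of the same gene. The share is therefore not read as differing from that background. No probe of the 16 had groups that did not overlap, against 116 probes (0.484%) of the array. With 1 probe per gene, 5 genes were higher and 5 lower in ethanol kidneys, and their median log2 difference was 0.02, the same as the 0.02 of all 12618 tested genes. The genes differed much more in how widely they ranged over the 12 kidneys, which the plot of values by group shows.

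**Figure D1:**
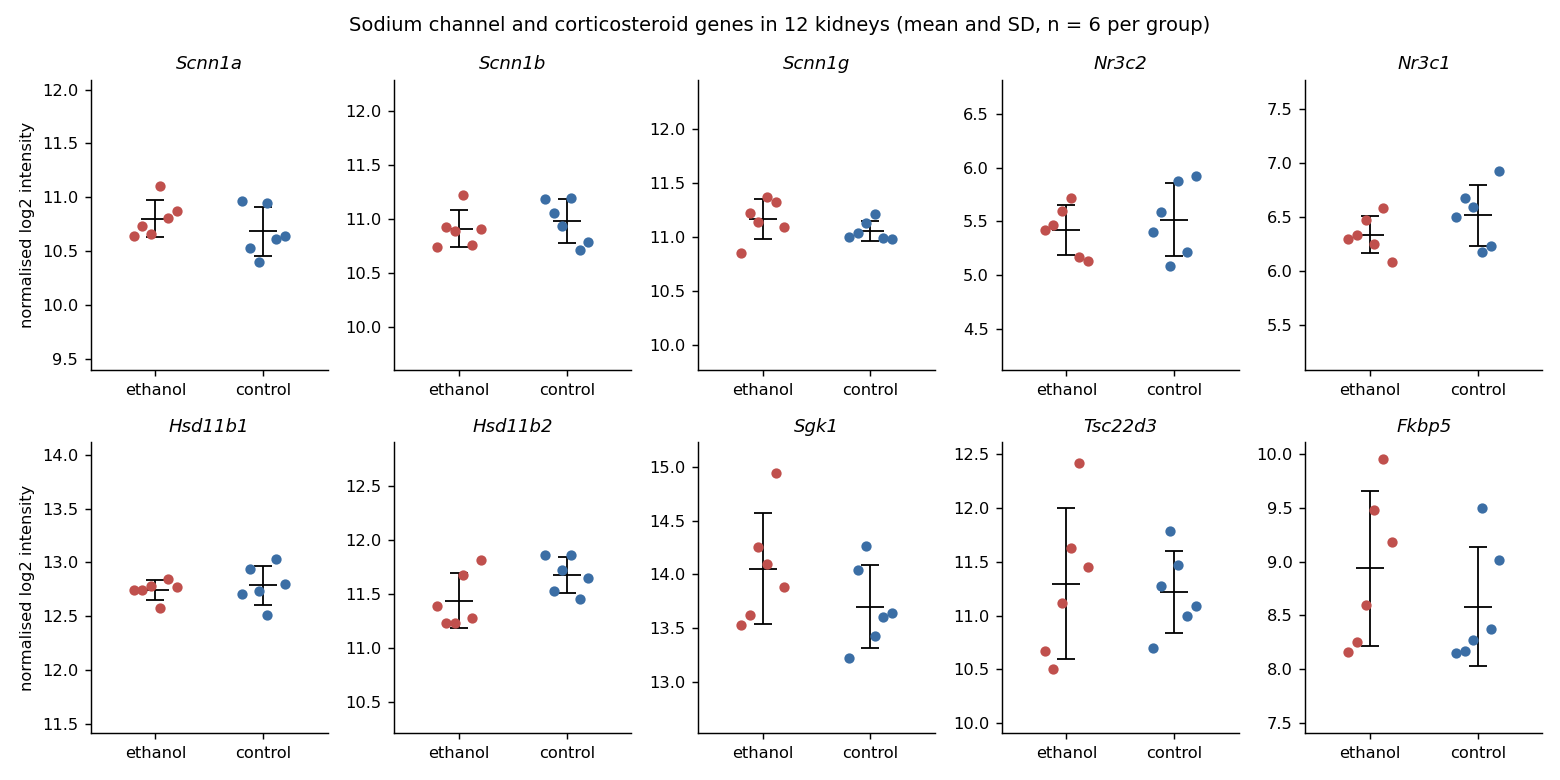
Normalised log2 intensity of the 10 genes in each of 6 ethanol kidneys (red, left) and 6 control kidneys (blue, right), for the brightest probe of each gene. Horizontal bars give the mean and SD, every panel spans the same number of log2 units, and the groups overlap in all 10 panels; Sgk1, Tsc22d3 and Fkbp5 spread the most.

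All 3 channel subunits were bright on every array and differed little. Scnn1a, the pore subunit needed for assembly of the channel, lay between 10.64 and 11.10 with a median of 10.77 in ethanol kidneys and between 10.40 and 10.96 with a median of 10.62 in controls. All 6 ethanol values were above the control median, but 2 controls lay above most of the ethanol kidneys. The log2 difference was 0.12 with an SE of 0.13 (95% interval −0.14 to 0.39, limma adjusted p = 0.705). Scnn1b, a subunit whose tail binds the ubiquitin ligase Nedd4l, ranged from 10.74 to 11.22 (median 10.90) in ethanol kidneys and from 10.71 to 11.20 (median 11.00) in controls. The 2 ranges nearly coincided, and the log2 difference was −0.07 with an SE of 0.12 (interval −0.33 to 0.19, limma adjusted p = 0.834). Scnn1g, a subunit that proteases cleave to activate the channel, ranged from 10.85 to 11.37 (median 11.18) in ethanol kidneys and from 10.98 to 11.21 (median 11.02) in controls. Both the lowest and the 3 highest Scnn1g values were ethanol kidneys. The Scnn1g log2 difference was 0.11 with an SE of 0.11 (interval −0.12 to 0.34, limma adjusted p = 0.701).

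Both receptors gave dim probes, and both were slightly lower in ethanol kidneys without passing the test. Nr3c1 lay between 6.08 and 6.58 (median 6.32) in ethanol kidneys and between 6.17 and 6.93 (median 6.55) in controls. The 3 highest values were controls, and the log2 difference was −0.18 with an SE of 0.14 (interval −0.48 to 0.11, limma adjusted p = 0.609). Nr3c2 lay between 5.13 and 5.72 (median 5.44) in ethanol kidneys and between 5.09 and 5.92 (median 5.50) in controls. Controls held both ends of the Nr3c2 range, and the log2 difference was −0.10 with an SE of 0.16 (interval −0.45 to 0.25, limma adjusted p = 0.829). The deposited intensity of this Nr3c2 probe was 13.8 to 45.8, close to the background of the arrays, so the reading rests on little signal. The second Nr3c2 probe, ILMN_2751258, was above background on 0 of 12 arrays and was not tested.

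Hsd11b1, which regenerates active glucocorticoid, had 4 probes. Its brightest, ILMN_3115917, lay between 12.58 and 12.85 (median 12.76) in ethanol kidneys and between 12.51 and 13.03 (median 12.77) in controls, so that the ethanol values sat inside the control range. The log2 difference of that probe was −0.04 with an SE of 0.11 (interval −0.27 to 0.18, limma adjusted p = 0.897). The other bright probes differed by −0.03 (ILMN_1214998) and −0.12 (ILMN_2774160). The 3 bright probes followed each other over the 12 kidneys, with Pearson r of 0.90, 0.89 and 0.85 (permutation p = 6e-05, 0.00012 and 0.00045, adjusted over 10 probe pairs 0.0003, 0.0004 and 0.00112) and Spearman rho of 0.94, 0.77 and 0.77 (permutation p = 4e-05, 0.00423 and 0.00499, adjusted 0.0002, 0.0125 and 0.0125). Without the 2 kidneys farthest from the median r was 0.90, 0.76 and 0.71 for these pairs. The fourth probe, ILMN_3041149, was dim and did not follow them closely, with r of 0.35, 0.44 and 0.10 against the bright probes (adjusted permutation p = 0.374, 0.306 and 0.763). It ranged from 6.61 to 7.12 (median 6.92) in ethanol kidneys and from 6.88 to 7.30 (median 7.13) in controls. Its log2 difference of −0.23 with an SE of 0.12 (interval −0.48 to 0.02, limma adjusted p = 0.442) was the largest of the Hsd11b1 probes and was not shared by the bright ones.

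Hsd11b2, which shields the mineralocorticoid receptor, was lower in ethanol kidneys by both of its probes, and 1 of them was the probe at an unadjusted p under 0.05. That probe, ILMN_2731265, read 9.53, 8.71, 9.02, 10.16, 9.23 and 10.89 in ethanol kidneys 1 to 6, against 10.83, 9.67, 10.40, 10.83, 9.74 and 10.62 in control kidneys 1 to 6. Ethanol kidneys 1, 2, 3 and 5 lay below every control, while ethanol kidney 6 was the highest of all 12. The group means were 9.59 ± 0.81 in ethanol and 10.35 ± 0.52 in control kidneys (SD, n = 6 each), a log2 difference of −0.76 with an SE of 0.34 (interval −1.48 to −0.04, 0.591-fold, limma unadjusted p = 0.0405, adjusted p = 0.402). Without any 1 of control kidneys 1, 3 and 4 or ethanol kidneys 1, 2, 3 and 5, no probe of the 10 genes was at an unadjusted p under 0.05, and there were 2 such probes without ethanol 4 and 3 without ethanol 6. The log2 difference of this Hsd11b2 probe stayed between −1.02 and −0.58 as each kidney was left out. An exact two-sided permutation test over the 924 group assignments gave p = 0.0844 for the same probe. The brighter probe, ILMN_1229516, read 11.39, 11.23, 11.23, 11.68, 11.28 and 11.82 in ethanol kidneys, against 11.86, 11.53, 11.72, 11.86, 11.45 and 11.65 in controls. Its log2 difference was −0.24 with an SE of 0.13 (interval −0.52 to 0.04, limma adjusted p = 0.470, exact permutation p = 0.0844). The probes therefore ranked the kidneys almost alike and differed in the size of the change. Their correlation over the 12 kidneys was r = 0.97 (permutation p = 1e-05, the smallest 100000 permutations can give, adjusted 0.0001) and rho = 0.94 (permutation p = 2e-05, adjusted 0.0002), and r was 0.96 without the 2 kidneys farthest from the median.

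**Figure D2:**
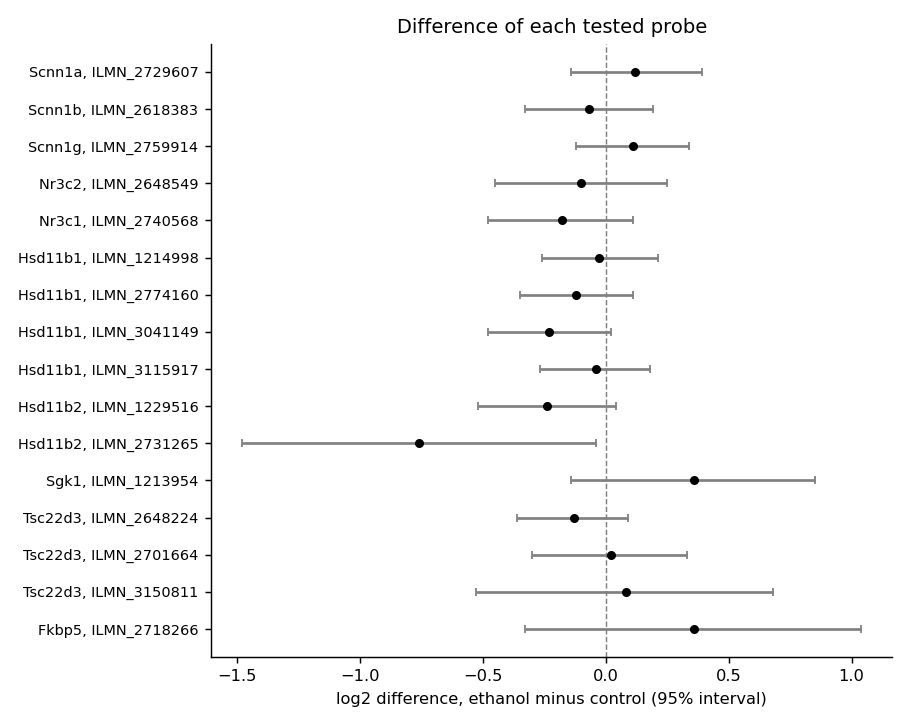
Log2 difference, ethanol minus control, of each of the 16 tested probes, with its 95% interval from limma (6 kidneys per group). The interval of the Hsd11b2 probe ILMN_2731265, −1.48 to −0.04, is the one that leaves out 0 before adjustment.

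The Hsd11b2 reading moved with the main axis of variation among the arrays. The first principal component of all tested probes held 32.6% of the variance, and its scores were 7.2, 45.7, 37.5, 3.4, 17.4 and −24.9 in ethanol kidneys 1 to 6 and −8.6, 23.4, −6.8, −62.5, −3.0 and −28.8 in control kidneys 1 to 6. ILMN_2731265 was lower where the score was higher, with r = −0.88 (permutation p = 6e-05, adjusted 0.0106 over 176 relations between probes and such measures) and rho = −0.92 (permutation p = 7e-05, adjusted 0.0123). Without control 4 and ethanol 2, the kidneys farthest out on the component, r was −0.88. Within the groups r was −0.96 in ethanol kidneys (exact permutation p = 0.00139) and −0.74 in controls (exact permutation p = 0.0722). ILMN_1229516 gave r = −0.82 (permutation p = 0.00068, adjusted 0.0516) and rho = −0.85 (permutation p = 0.00078, adjusted 0.0686), and r = −0.76 without the same 2 kidneys. With ethanol 2, ethanol 3 and control 4 left out, a choice made after the scores were seen, the log2 difference of ILMN_2731265 was −0.30 (limma adjusted p = 0.929). Those ethanol kidneys held the lowest readings of this probe (8.71 and 9.02), and control 4 shared the highest control reading (10.83). A smaller difference therefore followed from the choice of kidneys, and nothing is concluded from it. The part of this component in the Hsd11b2 result was not tested. The mean log2 level of 9 intercalated cell markers also followed Hsd11b2, with r = 0.81 for ILMN_2731265 (permutation p = 0.002, adjusted 0.088; rho = 0.80, permutation p = 0.00248, adjusted 0.0947; r = 0.88 without the 2 kidneys farthest from the median), and its part was not tested either. Distal convoluted and connecting tubule markers (8 tested) gave r = 0.56 with that probe (permutation p = 0.0479, adjusted 0.351), rho = 0.78 (permutation p = 0.00448, adjusted 0.118) and r = 0.82 without control 5 and ethanol 3. Principal cell markers (11 tested) gave r = −0.28 (permutation p = 0.393, adjusted 0.795) and rho = −0.15 (permutation p = 0.651, adjusted 0.970), with r = 0.25 without control 6 and ethanol 6. Thick ascending limb markers (6 tested) gave r = −0.65 (permutation p = 0.0123, adjusted 0.211) and rho = −0.68 (permutation p = 0.0182, adjusted 0.282), with r = −0.55 without control 4 and ethanol 6. Proximal tubule markers (12 tested) gave r = 0.51 (permutation p = 0.0904, adjusted 0.568) and rho = 0.39 (permutation p = 0.21, adjusted 0.821). None of these lists passed the adjusted threshold with that probe. Differences between these marker lists were not tested. In whole kidney, fewer cells of a type and less RNA per cell cannot be told apart.

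**Figure D3:**
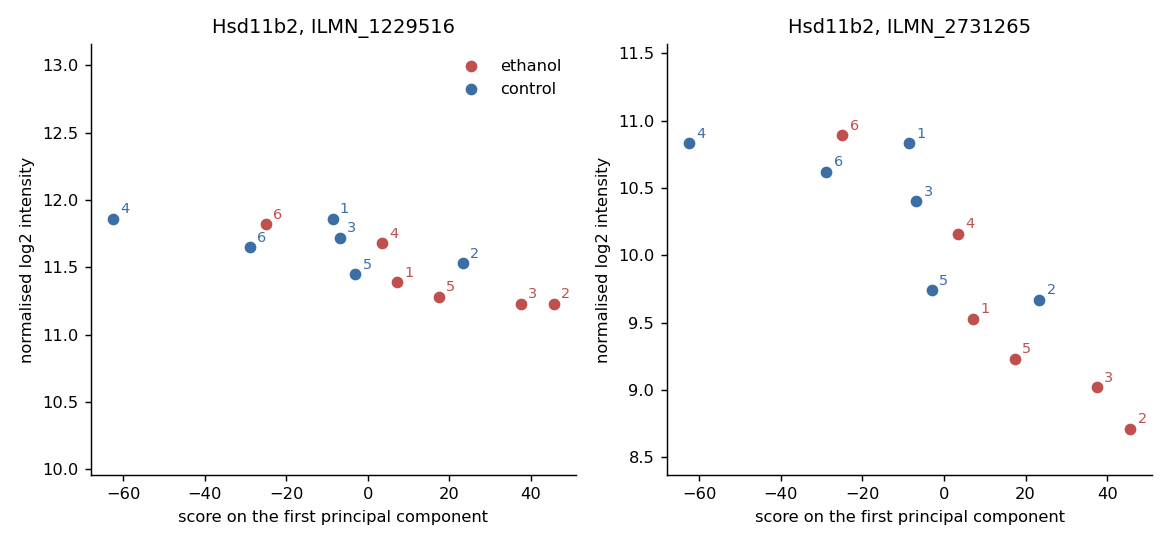
Normalised log2 intensity of the 2 Hsd11b2 probes (left ILMN_1229516, right ILMN_2731265) against each kidney's score on the first principal component of all tested probes; red points are ethanol and blue points control kidneys, numbered by replicate. Ethanol 2 and 3 sit at the low right end and control 4 at the high left end, with r of −0.82 and −0.88 over the 12 kidneys.

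By the brightest probe of each gene, the induced genes Sgk1, Tsc22d3 and Fkbp5 had the widest range of the 10 genes over the 12 kidneys. The second Hsd11b2 probe, ILMN_2731265, ranged more widely than any of them, with an SD of 0.76 and a span of 2.18 on the log2 scale. The SD over all kidneys was 0.47 for Sgk1, 0.54 for Tsc22d3 and 0.64 for Fkbp5 on the log2 scale, at the 91.4, 94.9 and 97.5 percentiles of all 12618 tested genes, whose median SD was 0.26. The highest kidney exceeded the lowest 3.30-fold for Sgk1, 3.79-fold for Tsc22d3 and 3.48-fold for Fkbp5. The channel subunits lay at the other end, with SDs of 0.20 for Scnn1a, 0.18 for Scnn1b and 0.15 for Scnn1g (28.9, 22.6 and 12.7 percentiles), as did the brightest Hsd11b1 probe at 0.14 (9.0 percentile). Nr3c2, Nr3c1 and the brighter Hsd11b2 probe were near the middle, with SDs of 0.28, 0.24 and 0.24.

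The promoters of the 3 induced genes are shown because corticosteroids are known to induce these genes and their brightest probes varied widely among kidneys. They are the 250 bases before a RefSeq transcription start (build GRCm38.p6), 5′ to 3′ on the gene's strand: an Sgk1 window at chr10:21993640-21993889 (plus strand), a Tsc22d3 window at chrX:140600523-140600772 (minus strand) and the single Fkbp5 window at chr17:28486150-28486399 (minus strand). These Sgk1 and Tsc22d3 windows were picked for the motif: no other Sgk1 window holds the palindrome, and no other Tsc22d3 window holds an arm. Capitals mark the glucocorticoid response element palindrome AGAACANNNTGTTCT, its single arm AGAACA or TGTTCT, and the E-box CACGTG, searched on both strands; every palindrome also holds 2 arms, and in the Sgk1 window an E-box and an arm overlap.
Sgk1: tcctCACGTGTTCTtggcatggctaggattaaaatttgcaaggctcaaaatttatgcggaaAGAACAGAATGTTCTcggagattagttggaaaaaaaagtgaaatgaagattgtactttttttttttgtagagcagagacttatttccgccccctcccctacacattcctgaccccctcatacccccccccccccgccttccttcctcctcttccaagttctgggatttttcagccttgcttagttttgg
Tsc22d3: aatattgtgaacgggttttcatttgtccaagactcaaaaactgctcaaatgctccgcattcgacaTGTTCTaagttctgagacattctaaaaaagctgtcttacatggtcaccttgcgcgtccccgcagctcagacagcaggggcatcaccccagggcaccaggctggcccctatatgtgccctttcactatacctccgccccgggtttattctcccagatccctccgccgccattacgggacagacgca
Fkbp5: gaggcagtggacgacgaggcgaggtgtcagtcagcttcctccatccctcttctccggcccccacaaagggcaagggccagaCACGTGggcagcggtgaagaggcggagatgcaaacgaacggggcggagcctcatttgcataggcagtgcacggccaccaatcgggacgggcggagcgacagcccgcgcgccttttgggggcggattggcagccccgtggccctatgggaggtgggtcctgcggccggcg
RefSeq windows were matched for 7 of the 10 genes, 14 windows in all, of which Sgk1 had 6 and Tsc22d3 had 3. The palindrome occurred in 1 of these 14 windows, the Sgk1 window shown, where it begins 189 bases before that start and 965 bases before the next Sgk1 start downstream. It occurred in 3 of 32851 RefSeq windows of the same length (0.00913%). The arm AGAACA was in 4 of the 14 windows and in 5284 of all windows (16.1%), and the E-box was in 2 of the 14 and in 1978 of all (6.02%). The Tsc22d3 window holds 1 arm 185 bases before its start, and the Fkbp5 window holds 1 E-box 169 bases before its start and no arm.

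Sgk1 was higher in ethanol kidneys on average but did not pass the test. It read 13.53, 13.62, 14.25, 14.10, 14.94 and 13.88 in ethanol kidneys 1 to 6, against 13.22, 14.04, 14.26, 13.43, 13.60 and 13.64 in control kidneys 1 to 6. Ethanol kidney 5 stood above all others and control kidney 3 was next, so the groups overlapped over most of their range. The log2 difference was 0.36 with an SE of 0.23 (interval −0.14 to 0.85, 1.28-fold, limma adjusted p = 0.544). Without ethanol kidney 5 the Sgk1 difference was 0.18, and as each kidney was left out it lay between 0.18 and 0.47.

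Tsc22d3 did not separate the groups. Its bright probe, ILMN_3150811, read 10.67, 10.50, 11.12, 11.63, 12.42 and 11.45 in ethanol kidneys, against 10.70, 11.28, 11.79, 11.47, 11.00 and 11.09 in controls. Ethanol kidneys held both the lowest and the highest value, and the log2 difference was 0.08 with an SE of 0.28 (interval −0.53 to 0.68, limma adjusted p = 0.933). That difference was −0.15 without ethanol kidney 5 and −0.03 without control kidney 1, so its sign rested on single kidneys. The 2 other Tsc22d3 probes were dim. ILMN_2648224 was above background on 2 of 6 ethanol and 5 of 6 control arrays and differed by −0.13, and ILMN_2701664 was above background on 5 of 6 ethanol and 4 of 6 control arrays and differed by 0.02. Neither followed the bright probe (r = −0.41 and 0.20, adjusted permutation p = 0.318 and 0.597; rho = −0.09 and 0.37, adjusted 0.870 and 0.336).

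Fkbp5 read 8.16, 8.25, 8.60, 9.48, 9.95 and 9.18 in ethanol kidneys, against 8.15, 8.17, 8.27, 9.50, 8.37 and 9.02 in controls. Ethanol kidneys 4, 5 and 6 and control kidneys 4 and 6 were above 9, and the other 7 kidneys were at 8.60 or lower, so the split ran across the groups. The log2 difference was 0.36 with an SE of 0.32 (interval −0.33 to 1.04, 1.28-fold, limma adjusted p = 0.668). The Fkbp5 difference was 0.15 without ethanol kidney 5, 0.54 without control kidney 4, 0.61 with array quality weights and 0.79 without ethanol 2, ethanol 3 and control 4. That last choice took out low ethanol readings (8.25 and 8.60) and the highest control reading (9.50), so a larger difference followed from it.

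Among the 45 pairs of the 10 genes, 0 had an adjusted permutation p under 0.05. Sgk1 and Tsc22d3 had the highest r at 0.81 (permutation p = 0.00191, adjusted 0.0859) with rho = 0.69 (permutation p = 0.0166, adjusted 0.250). Without control 1 and ethanol 5 their r was 0.55, within ethanol kidneys it was 0.90 (exact permutation p = 0.0167) and within controls 0.75 (exact permutation p = 0.0875). On values centred within each group r was 0.85 with an adjusted permutation p of 0.0229, so this pair passed the threshold in that setting. It also passed in 3 of 12 leave-outs: without control 4 (r = 0.89, adjusted permutation p = 0.0175), ethanol 2 (0.83, adjusted 0.0463) or ethanol 3 (0.86, adjusted 0.0445). Without ethanol 5 alone r was 0.63, and over the leave-outs the adjusted permutation p reached 0.308. Tsc22d3 and Fkbp5 gave r = 0.73 (permutation p = 0.00612, adjusted 0.138) and rho = 0.71 (permutation p = 0.0134, adjusted 0.250), with r = 0.53 without ethanol 2 and ethanol 5. Of 12 leave-outs this pair passed in 1, without control 3 (r = 0.87, adjusted permutation p = 0.0112). Without ethanol 5 alone r was 0.56, and the adjusted permutation p reached 0.328 over the leave-outs. Within ethanol kidneys the r of Tsc22d3 and Fkbp5 was 0.98 (exact permutation p = 0.00278) and within controls 0.23 (exact permutation p = 0.644), and the difference between the groups was not tested. Sgk1 and Fkbp5 gave r = 0.47 (permutation p = 0.126, adjusted 0.435) and rho = 0.42 (permutation p = 0.175, adjusted 0.564). That relation rested on control 1 and ethanol 5, without which r was −0.09.

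**Figure D4:**
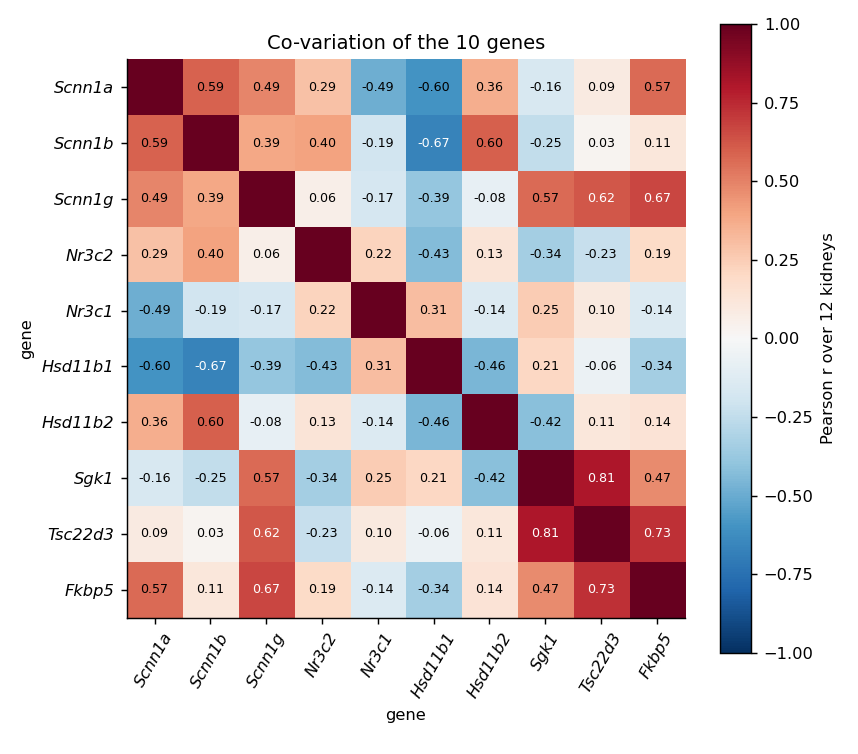
Pearson r of each pair of the 10 genes over the 12 kidneys (6 ethanol and 6 control), brightest probe per gene, red positive and blue negative. The pairs among Sgk1, Tsc22d3, Fkbp5 and Scnn1g are red (0.47 to 0.81), and Hsd11b1 is negative against all 3 channel subunits (−0.67 to −0.39). Scnn1a with Scnn1b (0.59) and Fkbp5 (0.57), and Scnn1b with Hsd11b2 (0.60), are red to a similar degree.

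The channel subunits varied together in part, and none of their pairs passed the adjusted threshold. Scnn1a and Scnn1b gave r = 0.59 (permutation p = 0.0474, adjusted 0.242) and rho = 0.48 (permutation p = 0.115, adjusted 0.399), and r = 0.58 without control 3 and ethanol 4. Scnn1g gave r = 0.49 with Scnn1a and 0.39 with Scnn1b (adjusted permutation p = 0.410 and 0.494; rho = 0.49 and 0.48, adjusted 0.399 for both). Against the induced genes Scnn1g gave r = 0.67 for Fkbp5 (permutation p = 0.0171, adjusted 0.193), 0.62 for Tsc22d3 (0.0325, adjusted 0.242) and 0.57 for Sgk1 (0.0521, adjusted 0.242), and rho of 0.59, 0.56 and 0.50 (adjusted 0.357, 0.357 and 0.399). Hsd11b1 ran against Scnn1b with r = −0.67 (permutation p = 0.0147, adjusted 0.193) and rho = −0.69 (permutation p = 0.016, adjusted 0.250). That r was −0.36 without control 4 and ethanol 4. Scnn1a ran against Hsd11b1 with r = −0.60 (permutation p = 0.038, adjusted 0.242) and rho = −0.59 (permutation p = 0.0492, adjusted 0.357). Without control 3 and ethanol 4 the r of Scnn1a and Hsd11b1 was −0.70. Scnn1b gave r = 0.60 with Hsd11b2 (permutation p = 0.043, adjusted 0.242) and Scnn1a 0.57 with Fkbp5 (permutation p = 0.0537, adjusted 0.242).

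Other genes that glucocorticoids are known to induce or repress were read from a list of 40, of which 37 were tested. The list held Per1, the clock gene with glucocorticoid response elements, Hif3a, a hypoxia-inducible factor subunit, and the metallothioneins Mt1 and Mt2. Of the 37, 9 (24.3%) had r of at least 0.6 with Sgk1, where 1.95% of 12608 other genes did. The same count was 12 (32.4%) with Tsc22d3, where 1.41% of other genes did, and 11 (29.7%) with Fkbp5, where 3.89% did. The genes share the same arrays, so these shares are descriptions. Without ethanol kidney 5 the counts were 2 (5.41%, against 1.3% of other genes), 6 (16.2%, against 1.82%) and 9 (24.3%, against 6.84%), so the Sgk1 and Tsc22d3 counts rested largely on that kidney. Without control kidney 4 the Sgk1 count was 14. Dusp1, Errfi1, Foxo3, Glul and Hif3a reached that level with all 3 genes, and were picked out after their values were seen. Other lists also exceeded the share of all genes. Of 13 tested circadian clock genes, 1 (7.69%), 4 (30.8%) and 3 (23.1%) had r of at least 0.6 with Sgk1, Tsc22d3 and Fkbp5. Of 16 tested immediate early genes, 1 (6.25%), 3 (18.8%) and 2 (12.5%) did. Per1 is in both the clock and the glucocorticoid list, and differences between the lists were not tested.

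Hif3a was among the 3 genes with the highest r with Fkbp5 (0.93), and Per1 among those with Tsc22d3 (0.87). Shared high and low kidneys follow from such r and are no separate result. Other kidneys did not line up: control 3, next to highest for Sgk1 (14.26), read 8.27 for Fkbp5 and 6.21 for Hif3a. Hif3a read 6.27, 6.34, 6.95, 7.80, 8.74 and 7.58 in ethanol kidneys 1 to 6, against 6.12, 6.51, 6.21, 7.36, 6.16 and 6.57 in controls. Its top value was ethanol kidney 5, the kidney with the highest Sgk1, Tsc22d3 and Fkbp5. The Hif3a log2 difference was 0.79 (limma unadjusted p = 0.0489), and its 2 other probes differed by 0.18 and 0.03. Per1 read 7.66, 7.48, 8.99, 10.18, 10.24 and 10.06 in ethanol kidneys, against 8.39, 9.10, 10.25, 10.28, 8.36 and 9.48 in controls. Per1 was lowest in ethanol kidneys 1 and 2, which were also the lowest for Tsc22d3, and it differed by −0.21 between the groups (limma unadjusted p = 0.700).

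**Figure D5:**
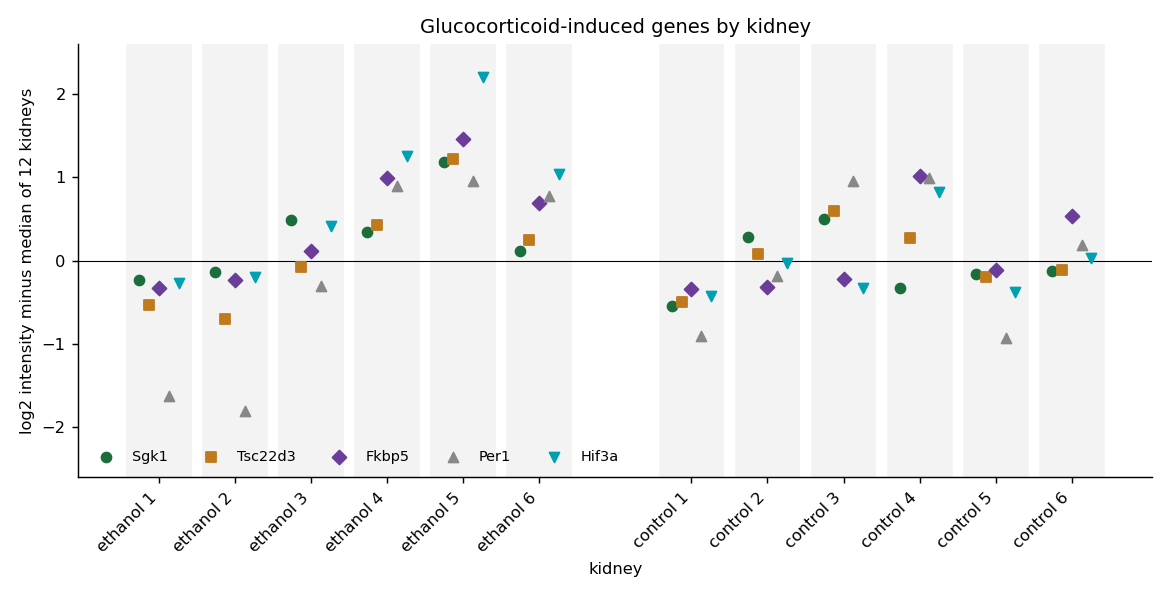
Log2 intensity of Sgk1, Tsc22d3, Fkbp5, Per1 and Hif3a in each kidney, as the difference from the gene's median over the 12 kidneys; ethanol kidneys are on the left and control kidneys on the right. All but Per1 peak in ethanol kidney 5, and Per1 and Tsc22d3 are lowest in ethanol kidneys 1 and 2.

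By the rule of the 3 genes with the highest r over the 12 kidneys, among 12203 genes searched, the nearest to Fkbp5 were Wbp1l (r = 0.95), Hif3a (0.93) and Rrn3 (0.92). Tnnc1 (0.91), Klf2 (0.91) and Per1 (0.87) were nearest to Tsc22d3, and Cryba4 (0.85), Zfp180 (0.84) and Noct (0.83) to Sgk1. Scnn1a was nearest to Cds1 (0.94), Notch3 (0.91) and Ncoa6 (0.90), Scnn1b to Abca4 (0.92), Asb16 (0.91) and Arhgef15 (0.90), and Scnn1g to Ptpn21 (0.95) and the clock genes Per2 (0.88) and Tef (0.86). Nr3c2 was nearest to Tyw1 (0.93), Lrrc55 (0.85) and St3gal2 (0.84), Nr3c1 to Ms4a6d (0.82), St13 (0.82) and Olfr1113 (0.81), and Hsd11b1 to Zdhhc20 (0.84), Vcam1 (0.84) and Ap4e1 (0.83). Among all 12617 other tested genes, Hsd11b2 had 75 at r of at least 0.9 where the other 9 genes had 0 to 6, and its nearest of those searched were Lpcat3, Cd82 and Slc2a4 (0.95 each). These are the highest of many correlations over 12 samples and carry no p. Cryba4 and Asb16 were above background on 9 of 12 arrays, and Lrrc55 and Olfr1113 on 11, so their readings lay close to background.

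Of the wider pathway lists 0 genes differed after adjustment. Every count in this paragraph is at an unadjusted p under 0.05, where 9.67% of all tested genes differed in either direction. The lists are small, and their counts are not read as differing from that share. Of 37 glucocorticoid-responsive genes, 4 were higher and 1 lower in ethanol kidneys at an unadjusted p under 0.05, where 4.72% of all tested genes were higher and 4.95% lower. The 37 genes had a median log2 difference of 0.09, against 0.02 for all genes. Mt2 averaged 7.36 ± 0.38 in ethanol and 6.55 ± 0.32 in control kidneys (SD, n = 6 each; log2 difference 0.80, limma adjusted p = 0.379), and Mt1 15.13 ± 0.21 and 14.77 ± 0.20 (0.36, adjusted p = 0.379). The sodium-proton exchanger Slc9a3 was at 12.48 ± 0.21 in ethanol and 12.15 ± 0.14 in control kidneys (0.33), and Tsc22d1, a relative of Tsc22d3, at 7.37 ± 0.64 and 8.11 ± 0.53 (−0.74), both with a limma adjusted p of 0.379. Of 23 tested partners of the channel in sodium transport, 1 was higher (the syntaxin Stx1a, 0.47) and 0 lower, with a median of 0.07. Of 8 genes of corticosteroid metabolism and binding, 2 were higher (the cytochrome Cyp3a13 and the reductase Akr1d1, 0.44 each) and 0 lower. Akr1d1 was above background on 6 of 6 ethanol and 2 of 6 control arrays. Its ethanol arrays alone met the filter for testing, so its difference is a description only. Of 15 receptor chaperones and coregulators, 1 was higher (the Mediator subunit Med1, 0.38, with 3 other probes between −0.16 and 0.09) and 0 lower.

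Markers of the cells that carry these genes, and of tissues that a kidney sample can hold, were read the same way. Unless given by sign alone, counts are of markers at an unadjusted p under 0.05. At that threshold 4.72% of all tested genes were higher and 4.95% lower. After adjustment 0 markers passed. Of 11 principal cell markers 0 were higher and 1 lower at that threshold (the water channel Aqp3, −0.38), and by sign alone 7 were higher and 4 lower. Their summed intensity was 11600 to 19100 in ethanol and 11000 to 19300 in control kidneys. Distal convoluted and connecting tubule markers (8 tested), intercalated cell markers (9) and thick ascending limb markers (6) had 0 at an unadjusted p under 0.05, and of 12 proximal tubule markers 1 was lower (Slc13a3, −0.81, with other probes at −0.66 and 0.84). Of 10 adrenal cortex markers, 1 could be tested, Cyp11a1 (0.46, above background on 6 of 6 ethanol and 3 of 6 control arrays), and Star and Hsd3b1 were never above background. The ethanol arrays alone met the filter for testing Cyp11a1, so its difference is a description only. Of 5 adrenal medulla markers 1 was tested, with a log2 difference of 0.04. Of 6 tested lymphocyte markers 4 were lower at that threshold: Coro1a −0.52, Cd3e −0.74, Cd52 −0.41 and Cd3d −0.63 (limma adjusted p = 0.379, 0.379, 0.379 and 0.388). By sign alone all 6 were lower, with a median of −0.46. Cd3d was above background on 2 of 6 ethanol and 6 of 6 control arrays. Its control arrays alone met the filter for testing, so its difference is a description only. The summed intensity of the 6 was 6810 to 10200 in ethanol and 7030 to 11200 in control kidneys. The lymphocyte level had r of −0.39, −0.14 and −0.12 with Sgk1, Tsc22d3 and Fkbp5 (adjusted permutation p = 0.756, 0.974 and 0.974). Of 11 myeloid markers 2 were lower at that threshold (C1qc −0.35 and C1qb −0.29), and by sign alone 9 were lower and 2 higher. Their sums were 3060 to 4380 in ethanol and 3690 to 4340 in control kidneys. The myeloid level had r = 0.69 with Nr3c1 (permutation p = 0.0107, adjusted 0.208) and rho = 0.67 (permutation p = 0.0196, adjusted 0.282). Fat cell markers (7 tested) and red cell markers (4) had 0, with medians of 0.27 and −0.23. The part of these cell levels in the values of the 10 genes was not tested.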

How the data were processed

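Probe intensity on a linear scale, with background already subtracted, was deposited by the authors and came from GenomeStudio, per the submitters' processing notes; neither its version nor any scaling is given in the sources used here. On each array 8.16% to 33.3% of values lay below 0, the median was 14.2 to 26.2, and 50.4% to 56.9% of probes were above background. A second table was not used, because its 24 columns of values match no sample's label; the planned detection p-values were therefore replaced by a background estimated from the deposited intensities. That background was the mode of each array (kernel bandwidth 2, sought below the 0.6 quantile) with the spread below it. A normal-exponential correction with offset 16, quantile normalisation and log2 followed, in limma 3.58.1 and statmod 1.5.0 under R 4.3.3, so the log2 values are computed here from the deposited intensity. An error in the background would move dim probes most. Probes above background (p under 0.05) on at least 6 of 12 arrays were tested with lmFit and eBayes, ethanol minus control, and adjusted by Benjamini-Hochberg over all 23984. A gene was represented by its tested probe with the highest mean. Correlations used 100000 permutations (exact within groups), in Python 3.11.15 with scipy 1.17.1; exact group tests cover 924 assignments, with a smallest p of 0.00216. Of the probes 34885 had 1 symbol, 18 several and 10378 none, by the platform annotation. The procedures were tested on simulated data. Genes named from the lists were up to 4 per list with the smallest p, at an unadjusted p under 0.05, and the 3 nearest genes of each member; others are marked as chosen after their values were seen. The 10 genes, the 17 lists and the tests were chosen with earlier results of these data known. Alternatives tried are background correction, filter, offset, weights, block, scaling and leaving out kidneys.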

Additional observations from a re-analysis of the deposited data

How the results depend on the processing

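The number of probes called over the array was 0 in the reported analysis and 0 in every setting but the deposited values without further correction, where it was 1, a probe with no gene name (log2 difference 1.63, limma adjusted p = 0.00782). Leaving out each kidney in turn gave 0 to 0 called probes and 1834 to 3802 at an unadjusted p under 0.05. The number of member probes at an unadjusted p under 0.05 was 1; it was 0 without background correction, 0 with the deposited values, 2 with no filter on dim probes, 2 with array quality weights, and 0 to 3 when each kidney was left out. Over the whole array the count at that threshold was 2915 in the reported analysis. It was 2532 without background correction, 2215 with the deposited values and 3997 with array quality weights. With no filter it was also higher, but more probes were tested. The member counts are therefore not read apart from the array-wide counts. The cause of these changes was not tested. Nr3c2 turned to 0.02 with array weights. Hsd11b1 turned to 0.01 without control 5 (−0.10 to 0.01 as each kidney was left out), and Tsc22d3 to −0.03 without control 1, −0.15 without ethanol 5 (−0.15 to 0.24 as each was left out) and −0.01 as the mean over its probes. Over 22 alternatives the lowest limma adjusted p of a member gene by its brightest probe was 0.269, and the median log2 difference of the 10 genes lay between −0.05 and 0.08. The number of correlated pairs was 0, and was 1 with the deposited values, 1 on group-centred values and 0 to 2 when each kidney was left out, with Sgk1 and Tsc22d3 the pair under group centring and the deposited values. Counts of glucocorticoid-responsive genes at r of at least 0.6 were 2 to 14 for Sgk1, 6 to 14 for Tsc22d3 and 9 to 12 for Fkbp5 when each kidney was left out, and 8, 12 and 11 on group-centred values. Same-numbered kidneys had residual correlations of 0.001 to 0.465, against a median of −0.0633 for other pairs, and 2 of 12 kidneys correlated best with their own number. Even the lowest same-number value was above that median. The labels tie the numbers to nothing shared, so the numbers were not taken as pairs in the reported analysis. Whether same-numbered kidneys shared a batch was not tested. With a replicate block 0 probes were called, 3555 probes had an unadjusted p under 0.05 against 2915 without it, and ILMN_2731265 of Hsd11b2 had an adjusted p of 0.156. The number of arrays limits the precision, and signal near background limits Nr3c2, Nr3c1, the fourth Hsd11b1 probe and 2 Tsc22d3 probes.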

Other observations

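Over the 12 kidneys Scnn1g, a sodium channel subunit, followed the clock genes in part. Its r with the mean level of 13 tested circadian clock genes was 0.76 (permutation p = 0.00459, adjusted 0.162 over 176 relations, which did not take in the glucocorticoid-responsive list), with rho = 0.72 (permutation p = 0.0101, adjusted 0.188) and r = 0.45 without ethanol 4 and ethanol 5. Tsc22d3 gave r = 0.71 with the clock genes (permutation p = 0.00947, adjusted 0.208; rho = 0.77, permutation p = 0.00469, adjusted 0.118; 0.50 without the same 2 kidneys). For Sgk1 r was 0.65 (permutation p = 0.0217, adjusted 0.258; rho = 0.59, permutation p = 0.0507, adjusted 0.370; 0.42 without them), and for Fkbp5 it was 0.51 (permutation p = 0.0941, adjusted 0.571; rho = 0.36, permutation p = 0.246, adjusted 0.821; −0.05 without them). None of these relations passed the adjusted threshold. Per2, a period gene of the clock, lay between 9.00 and 11.30 (median 9.87) in ethanol kidneys and between 8.72 and 10.30 (median 9.54) in controls, a log2 difference of 0.62 (limma unadjusted p = 0.145). Of the 13 clock genes 0 differed at an unadjusted p under 0.05, and of 16 tested immediate early genes, which respond within minutes to many stimuli, 0 did. Over all tested genes 4.72% were higher and 4.95% lower at that threshold. In lists this small, 0 is not read as differing from that background. The hour at which the kidneys were taken is not given in the sources used here.

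Scnn1g and Scnn1b also ran with fat cell markers, each with r = 0.69 (permutation p = 0.0132 and 0.015, adjusted 0.211 and 0.220) and rho of 0.64 and 0.72 (permutation p = 0.0296 and 0.0107, adjusted 0.296 and 0.188). For Scnn1g r was 0.40 and for Scnn1b 0.52 without ethanol 1 and ethanol 4. Within ethanol kidneys r was 0.98 for Scnn1g and 0.69 for Scnn1b, and within controls 0.15 and 0.81. Other marker lists gave r of similar size. Scnn1b gave 0.63 with red cell and with intercalated cell markers, and Scnn1g −0.63 with lymphocyte markers (adjusted permutation p = 0.261 each). These r used the mean log2 level of the fat cell markers, which was 6.26 to 9.65 in ethanol kidneys and 6.38 to 9.03 in control kidneys. Their summed intensity was 21600 to 29700 in ethanol kidneys and 15000 to 26500 in control kidneys. The sum did not follow the mean closely: control 6 had a mean of 6.38 and a sum of 24800, and control 4 had 8.01 and 15000. Adiponectin (Adipoq), picked after its values were seen, ranged from 5.34 to 10.84 in ethanol kidneys and from 5.02 to 10.66 in controls. The part of fat in the values of the channel subunits was not tested.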
